A study of Mus musculus with 9 samples.

Results

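Perilipins, CIDE proteins and the droplet-formation genes Fitm2 and Bscl2 were followed across 3 groups of 3T3-L1 cells, an established mouse preadipocyte line that hormones convert to fat cells. The 10 genes were chosen by symbol (Plin1, Plin2, Plin3, Plin4, Plin5, Cidea, Cideb, Cidec, Fitm2 and Bscl2), and 9 of them had a probe set assigned to that gene alone, as 18193 genes of the array did, with the brightest probe set standing for a gene. Plin1 had no probe set assigned to it alone in the annotation used, so its level was not analysed here. The groups, each of 3 arrays, were mature adipocytes electroporated with siRNA against PPAR gamma, mature adipocytes given control siRNA without a target by the same electroporation, and undifferentiated preadipocytes. Both adipocyte groups had received 10 µg/ml insulin, 0.5 mM of the phosphodiesterase inhibitor IBMX and 1 µM dexamethasone for 2 days, then insulin alone for 2 days, and were transfected on day 14 with 2 or 3 nmol of siRNA. For both adipocyte groups, induction began 2 days after confluence, day 8 is given as mature, and conversion to fat cells is given as at least 95%. The cocktail, the electroporation and the days in culture are not described for the preadipocytes, so their effects cannot be told apart from differentiation. The series calls the replicates technical, so the p-values reflect the spread among these arrays alone, which may be technical.

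A lipid droplet is a store of triglyceride and sterol esters wrapped in a single phospholipid layer. Perilipins coat that layer and govern the access of lipases, CIDE proteins gather at droplet contacts and pass lipid from the smaller to the larger droplet, and the endoplasmic reticulum proteins FIT2 (Fitm2) and seipin (Bscl2) act where new droplets emerge. White fat cells hold a very large droplet, and PPAR gamma, a nuclear receptor that pairs with RXR, is the master regulator of their differentiation.

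Values are log2 probe set levels as deposited, between 2.41 and 14.59 over all arrays, with array medians between 4.82 and 4.89. A level is comparable across groups for the same probe set, not between genes. Changes are differences of group means on this log2 scale ± SE from 1 limma fit over the 9 arrays, and a gene is called at a Benjamini-Hochberg adjusted p under 0.05 over 45037 probe sets. In bulk RNA, fewer fat cells and less RNA per fat cell cannot be told apart. Pparg, the siRNA target, stood at 9.59 ± 0.05 in PPAR gamma siRNA adipocytes, 12.79 ± 0.12 in control siRNA adipocytes and 8.22 ± 0.12 in preadipocytes (SD, n = 3 each). In control siRNA adipocytes, 5 of the 6 measured adipocyte markers exceeded their preadipocyte level, and leptin, Lep, was not called, with a mean of 3.69 in control siRNA adipocytes and 3.55 in preadipocytes. The mean level of the 6 markers lay between 9.62 and 9.68 on the PPAR gamma siRNA arrays, 11.74 and 11.85 on the control siRNA arrays, and 4.63 and 4.69 on the preadipocyte arrays. Of 6 measured preadipocyte or fibroblast markers, all 6 were lower in control siRNA adipocytes than in preadipocytes, and 5 were higher with PPAR gamma siRNA than with control siRNA. Among 7 macrophage markers, Cd14 and Cd68 were higher with PPAR gamma siRNA than with control siRNA, and the other 5 were not called. Beside these marker counts, 27.1% of all genes were called higher and 24.7% lower in control siRNA adipocytes than in preadipocytes. Between the siRNAs, 19.9% of all genes were called higher and 16.1% lower with PPAR gamma siRNA. Csf1r had means of 6.06 with PPAR gamma siRNA, 6.15 with control siRNA and 6.05 in preadipocytes, and Lyz2 had 5.81, 5.74 and 5.59 in the same groups. Adgre1, Itgam and Ptprc had group means of at most 3.85. The mean of the 7 lay between 5.25 and 5.49 on the PPAR gamma siRNA arrays, 4.90 and 4.92 on the control siRNA arrays, and 4.56 and 4.60 on the preadipocyte arrays. The part of these markers in the droplet gene changes was not tested. The Actb 3' minus 5' difference, a sign of RNA integrity, ranged from 0.54 to 1.25 with PPAR gamma siRNA, from 0.91 to 1.30 with control siRNA and from 0.23 to 0.36 in preadipocytes, beside all changes described here.

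PPAR gamma siRNA was compared with control siRNA in mature adipocytes to describe which droplet genes differed between the siRNAs. Of the 9 genes, 7 were called, where 35.9% of all genes were: 6 fell (Cidea, Cidec, Fitm2, Bscl2, Plin2 and Plin4) and 1 rose (Plin3), while Plin5 and Cideb did not pass the test. Over all genes the same call was made for 16.1% in the lower and 19.9% in the higher direction. At 2-fold or more, 4 fell and 1 rose, against 4.61% and 5.68% of all genes. The falls of Cidea and Cidec were the 2 largest measured among 18193 genes, and Fitm2 ranked 49 from the bottom. The 95% intervals of Cidea (-6.16 to -5.53) and Cidec (-5.55 to -5.10) overlapped slightly. Cidea is dim with PPAR gamma siRNA, so the size of its fall is a limit. The median change of the 9 genes was -0.90, against -0.01 over all genes. Arrays of the 2 groups did not overlap for 8 of the 9 genes, a state found for 44.4% of all genes.

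Control siRNA adipocytes were compared with preadipocytes to describe the differentiated state. Here 7 of the 9 genes were higher (Cidec, Cidea, Bscl2, Fitm2, Plin4, Plin2 and Cideb), Plin3 was lower and Plin5 did not pass the test. Over all genes 51.8% were called, 27.1% higher and 24.7% lower. At 2-fold or more, 6 of the 9 were higher and 1 lower, against 8.83% and 10.6% of all genes. Cidec had the third largest rise of 18193 genes and Cidea ranked 29. The median change was 2.19, against 0.09 over all genes, and 8 of the 9 genes had arrays that did not overlap, as 61.5% of all genes did.

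PPAR gamma siRNA adipocytes were also compared with preadipocytes, to ask how much of the adipocyte pattern remained. Of the 9 genes, 6 were still higher (Cidec, Bscl2, Plin4, Fitm2, Plin2 and Cideb), where 19.6% of all genes were called higher and 36.5% in either direction, and the other 3 (Plin3, Plin5 and Cidea) were not called. limma called none of the 9 lower, neither at an adjusted p under 0.05, where 16.9% of all genes were called lower, nor at an unadjusted p under 0.05. At 2-fold or more, 4 were higher and 0 lower, against 4.29% and 5.01% of all genes. The median change was 0.69, against 0.07 over all genes. Arrays did not overlap for 6 of the 9 genes and for 49.8% of all genes. These 3 comparisons share their groups pairwise, so their values are not independent of each other.

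**Figure D1:**
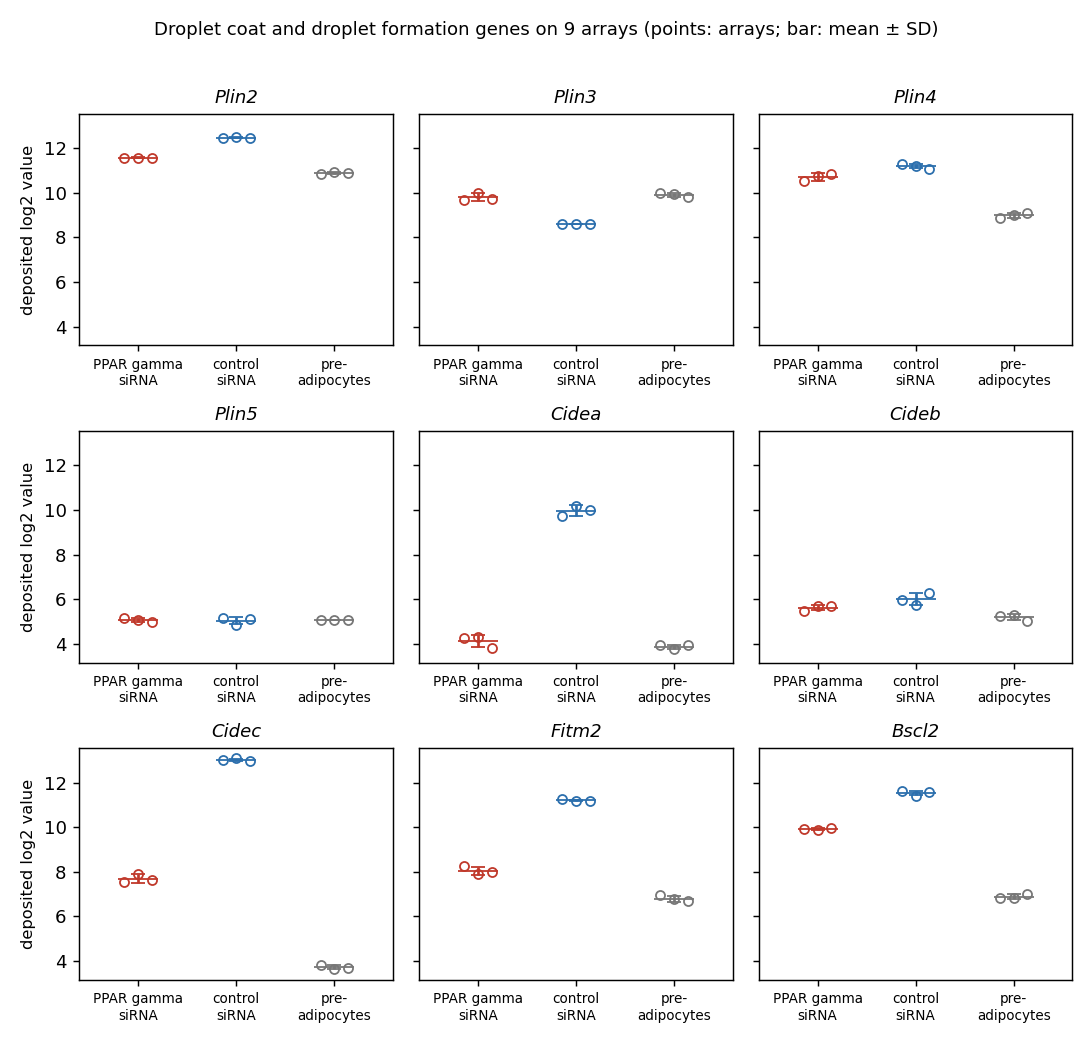
Deposited log2 values of the 9 measured droplet genes (vertical axis) on the 3 arrays of each group, with PPAR gamma siRNA adipocytes on the left, control siRNA adipocytes in the middle and preadipocytes on the right; open points are arrays and bars are means ± SD (n = 3). Cidea lies near 4 with PPAR gamma siRNA and in preadipocytes but near 10 with control siRNA, Plin3 runs the opposite way, and Plin5 stays near 5 in all groups.

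**Figure D2:**
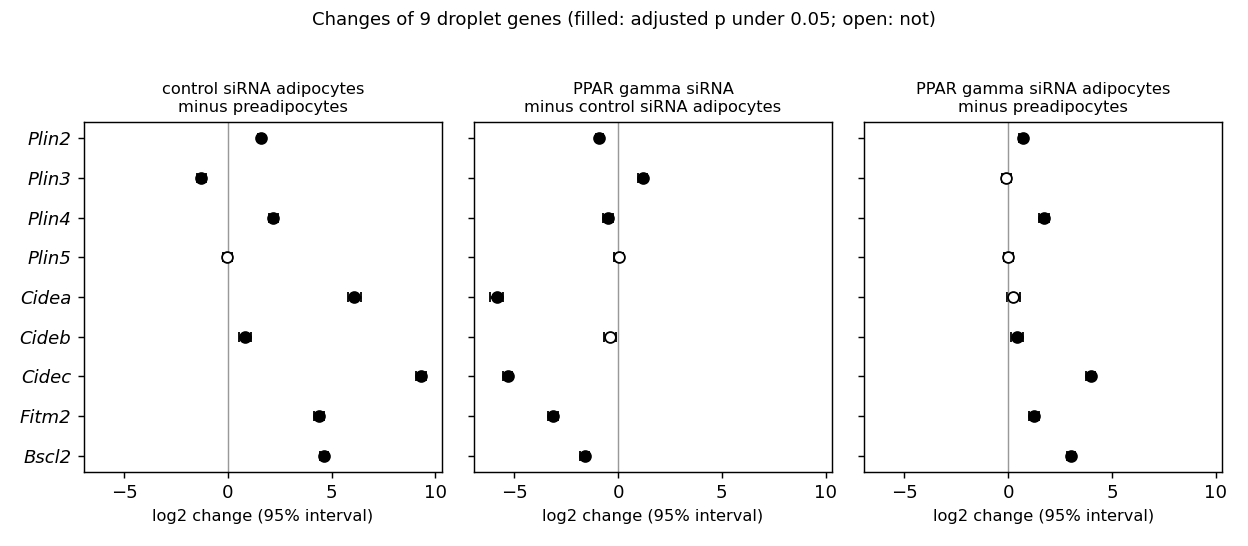
Log2 changes of the 9 genes (horizontal axis, points with 95% intervals) in the 3 comparisons named above the panels; filled points passed an adjusted p of 0.05 and open points did not. Cidea and Cidec lie farthest to the left in the middle panel, at -5.84 and -5.32, and Plin3 at 1.19 is the only filled point there to the right of 0.

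Among the perilipins, Plin2 (probe set 1448318_at), the coat protein found on droplets of most cell types, had levels of 11.58, 11.56 and 11.58 with PPAR gamma siRNA, 12.46, 12.49 and 12.47 with control siRNA, and 10.86, 10.91 and 10.87 in preadipocytes. The 3 groups did not overlap, and control siRNA adipocytes were highest and preadipocytes lowest. Plin2 fell by 0.90 ± 0.07 with PPAR gamma siRNA (95% interval -1.06 to -0.74, adjusted p = 2.2e-06). It remained 1.61-fold above preadipocytes (log2 change 0.69 ± 0.07, adjusted p = 2.16e-05). In control siRNA adipocytes it was 3.01-fold higher than in preadipocytes (log2 change 1.59 ± 0.07, adjusted p = 6.47e-09).

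Plin3 (1416424_at), also called TIP47, a perilipin that is largely cytosolic and moves onto newly forming droplets, ran against Plin2 and Plin4. Its levels were 9.69, 10.00 and 9.73 with PPAR gamma siRNA, 8.61, 8.62 and 8.62 with control siRNA, and 9.98, 9.94 and 9.81 in preadipocytes. Control siRNA adipocytes were lowest on every array, and the other two groups overlapped. Plin3 rose 2.28-fold with PPAR gamma siRNA (log2 change 1.19 ± 0.10, 95% interval 0.98 to 1.41, adjusted p = 2.32e-06). It was lower in control siRNA adipocytes than in preadipocytes by a log2 change of -1.29 ± 0.10 (adjusted p = 4.58e-07). The difference between PPAR gamma siRNA adipocytes and preadipocytes, -0.10, did not pass the test, with a 95% interval of -0.32 to 0.11 (adjusted p = 0.492).

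Plin4 (1418595_at), once named S3-12, which coats small nascent droplets in white fat cells, had levels of 10.51, 10.77 and 10.85 with PPAR gamma siRNA, 11.27, 11.21 and 11.08 with control siRNA, and 8.88, 9.02 and 9.08 in preadipocytes. Both adipocyte groups lay above preadipocytes on every array, and the highest PPAR gamma siRNA array was below the lowest control siRNA array. The fall with PPAR gamma siRNA was the smallest of the 6, at -0.48 ± 0.11 (95% interval -0.71 to -0.24, adjusted p = 0.0052). Under the test against a 1.2-fold change Plin4 was no longer called (adjusted p = 0.185; 0.00146 to 0.185 over all settings run). Plin4 stayed 3.28-fold above preadipocytes after PPAR gamma siRNA (log2 change 1.71 ± 0.11, adjusted p = 3.15e-07), against 4.57-fold with control siRNA (2.19 ± 0.11, adjusted p = 1.06e-08).

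Plin5 (1441915_s_at), the perilipin of oxidative tissues such as heart, liver and brown fat, stayed dim. Its levels ranged from 4.97 to 5.18 with PPAR gamma siRNA, 4.86 to 5.16 with control siRNA and 5.06 to 5.09 in preadipocytes, and all groups overlapped. The change with PPAR gamma siRNA was 0.03 ± 0.10 (95% interval -0.18 to 0.25, adjusted p = 0.865), and that of control siRNA adipocytes against preadipocytes was -0.03 ± 0.10 (-0.25 to 0.18, adjusted p = 0.824). A second Plin5 probe set (1424937_at), dimmer still at a mean of 4.08 over the 9 arrays, gave -0.15 ± 0.09 for PPAR gamma siRNA against control siRNA (adjusted p = 0.266) and 0.26 ± 0.09 for control siRNA adipocytes against preadipocytes (adjusted p = 0.0267). The call on Plin5 in differentiation therefore depends on the probe set. The brighter of them, 1441915_s_at, is of type s, which can match transcripts of more than 1 gene. Plin4 and Plin5 are next to each other on chromosome 17 with 0 protein-coding genes between them in the RefSeq list of GRCm38.p6, and Plin3 lies on the same chromosome with 7 protein-coding genes between it and Plin5. Between the siRNAs, Plin4 fell, Plin5 was not called and Plin3 rose.

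The 250 bases before the annotated start, from RefSeq on GRCm38.p6, were searched for 4 kinds of motif on both strands. These were the PPAR and RXR element (AGGTCA repeated after 1 base, with at most 2 mismatches in its 12 fixed bases), the C/EBP motif TTGCNNAA, the CCAAT box and the TATA box TATAAA. Among 32536 distinct windows of all genes, 3.25% held the PPAR and RXR element with up to 2 mismatches and 0.0338% an exact one, 9.57% held TTGCNNAA, 33.8% CCAAT and 12.3% TATAAA. The windows of Plin2 and Plin3 are shown because these genes moved in opposite directions, with matches in capitals and the start site following the last base. The Plin2 window lies at chr4:86670060-86670309 and the Plin3 window at chr17:56290512-56290761, both on the minus strand. The listed span of the Plin2 gene ends at 86670217, so part of its window lies inside that span. The Plin3 span ends at 56290511, just outside its window.
Plin2: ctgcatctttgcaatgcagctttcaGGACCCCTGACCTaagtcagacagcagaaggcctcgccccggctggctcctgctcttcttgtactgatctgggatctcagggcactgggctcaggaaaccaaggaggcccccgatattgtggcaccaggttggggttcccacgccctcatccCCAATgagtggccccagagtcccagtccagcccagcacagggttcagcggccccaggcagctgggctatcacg
Plin3: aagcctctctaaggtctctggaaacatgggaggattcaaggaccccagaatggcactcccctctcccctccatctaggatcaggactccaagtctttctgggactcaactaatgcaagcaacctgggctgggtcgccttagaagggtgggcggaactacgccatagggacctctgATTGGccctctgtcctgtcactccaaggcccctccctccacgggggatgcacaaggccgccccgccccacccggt
The Plin2 window held a PPAR and RXR element with 2 mismatches on the opposite strand, 225 to 213 bases before the start, and a CCAAT box 73 to 69 bases before it. The Plin3 window held a CCAAT box on the opposite strand, 75 to 71 bases before the start, and none of the other motifs. Plin2 was the only gene of those searched whose window held the PPAR and RXR element at this tolerance, in 13 windows of 9 genes (Plin1 included and Cidea not searched). The Plin1 window held TTGCNNAA on the same strand 187 to 180 and 58 to 51 bases before its start. A match is a description of the letters, and no binding was measured.

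Among the CIDE genes, Cidea and Cidec changed most between the siRNAs and Cideb was not called. Cidec (1452260_at), known as FSP27, which makes the large single droplet of white fat cells, had levels of 7.54, 7.90 and 7.65 with PPAR gamma siRNA, 13.00, 13.08 and 12.98 with control siRNA, and 3.82, 3.67 and 3.68 in preadipocytes. No 2 groups overlapped, and PPAR gamma siRNA adipocytes lay between the others. Cidec was 40.0-fold lower with PPAR gamma siRNA than with control siRNA (log2 change -5.32 ± 0.10, 95% interval -5.55 to -5.10, adjusted p = 1.2e-10). It remained 15.7-fold above preadipocytes (3.98 ± 0.10, adjusted p = 2.6e-10), against 629-fold with control siRNA (9.30 ± 0.10, adjusted p = 1.34e-13). Its preadipocyte mean of 3.72 is near the low end of the array, and no detection calls were used, so both folds over preadipocytes are limits and not measured sizes.

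Cidea (1417956_at), best known from brown and beige fat, lost nearly all of its signal. Its levels were 4.25, 4.29 and 3.83 with PPAR gamma siRNA, 9.73, 10.20 and 9.98 with control siRNA, and 3.93, 3.77 and 3.93 in preadipocytes. Control siRNA adipocytes stood apart on every array, and the other groups overlapped. Cidea was 57.4-fold lower with PPAR gamma siRNA than with control siRNA (log2 change -5.84 ± 0.14, 95% interval -6.16 to -5.53, adjusted p = 4.43e-10), and 68.1-fold above preadipocytes with control siRNA (6.09 ± 0.14, adjusted p = 2.97e-11). Its means of 4.13 with PPAR gamma siRNA and 3.88 in preadipocytes are near the low end of the array, so both folds are limits and not measured sizes. PPAR gamma siRNA adipocytes and preadipocytes differed by 0.25 ± 0.14, with a 95% interval of -0.07 to 0.56 (adjusted p = 0.231). This last difference passed the test without PPAR gamma siRNA replicate 3 (0.39, adjusted p = 0.0463) and with the Actb 3' minus 5' difference as a covariate (0.58, adjusted p = 0.00608), so Cidea was not shown to have returned to the preadipocyte level.

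Other brown fat markers were set beside Cidea. Of 7, 4 were lower with PPAR gamma siRNA than with control siRNA, where 16.1% of all genes were, and Ucp1, Prdm16 and Dio2 were not called. Only 2 of the 7, Cox7a1 and Cox8b, had a mean of at least 6 in either adipocyte group. The other falls were of dim genes, Elovl3 (4.45 with PPAR gamma siRNA, 4.90 with control siRNA) and Ppara (3.99 and 4.58). The mean of the list lay between 5.34 and 5.39 on the PPAR gamma siRNA arrays, 6.18 and 6.24 on the control siRNA arrays, and 4.16 and 4.22 on the preadipocyte arrays. Ucp1, the uncoupling protein that defines brown fat, was near the floor in every group, at means of 3.95, 3.96 and 3.92 in PPAR gamma siRNA adipocytes, control siRNA adipocytes and preadipocytes. The respiratory chain subunits Cox7a1 and Cox8b were lower with PPAR gamma siRNA by log2 changes of -2.53 ± 0.11 and -2.06 ± 0.11 (adjusted p = 1.9e-08 and 8.2e-08). Both remained above preadipocytes, by 3.37 ± 0.11 for Cox7a1 and 3.83 ± 0.11 for Cox8b (adjusted p = 1.62e-09 and 5.77e-10). Their preadipocyte means were dim, at 3.91 for Cox7a1 and 4.87 for Cox8b, so both differences are limits. The part of this list in the Cidea change was not tested.

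Cideb (1418976_s_at), the liver and intestine gene whose protein helps load lipid onto lipoproteins, was dim, with levels of 5.49, 5.70 and 5.69 under PPAR gamma siRNA, 5.96, 5.75 and 6.27 under control siRNA, and 5.23, 5.31 and 5.04 in preadipocytes. The groups did not overlap, although the nearest arrays of the 2 adipocyte groups were 5.70 and 5.75. In control siRNA adipocytes Cideb stood 1.74-fold above preadipocytes (0.80 ± 0.13, adjusted p = 0.000347). Its change with PPAR gamma siRNA, -0.37 ± 0.13, narrowly missed the threshold (95% interval -0.66 to -0.08, adjusted p = 0.0594). It passed without control siRNA replicate 2 (-0.49, adjusted p = 0.0168) and after renewed quantile normalisation (-0.46, adjusted p = 0.0268). Against preadipocytes, PPAR gamma siRNA adipocytes were higher by 0.43 ± 0.13 (adjusted p = 0.0285), a call that was lost without PPAR gamma siRNA replicate 2 or 3 or preadipocyte replicate 1 or 3 (0.35 to 0.45, adjusted p = 0.0627 to 0.11), and with the Actb difference as a covariate (0.41, adjusted p = 0.136). Its probe set is of type s, which can match transcripts of more than 1 gene. limma called none of 6 hepatocyte markers between the siRNAs, where 35.9% of all genes were called. Of the 6, 2 had an unadjusted p under 0.05, both lower with PPAR gamma siRNA. In control siRNA adipocytes, 3 of the 6 were called higher than in preadipocytes and 0 lower. Of all genes, 27.1% were called higher and 24.7% lower in that comparison. The mean of the 6 lay between 4.64 and 4.70 on the PPAR gamma siRNA arrays, 4.71 and 4.84 on the control siRNA arrays, and 4.47 and 4.59 on the preadipocyte arrays, and their part in the Cideb values was not tested.

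RefSeq lists 2 starts for Cidec on chromosome 6. Cidec was picked because it had the largest rise in differentiation among the 9 genes. The window of the downstream start, at chr6:113434765-113435014 on the minus strand, is shown because it held a match, given in capitals. The listed span of the Cidec gene ends at 113435760, so this window lies inside that span.
Cidec: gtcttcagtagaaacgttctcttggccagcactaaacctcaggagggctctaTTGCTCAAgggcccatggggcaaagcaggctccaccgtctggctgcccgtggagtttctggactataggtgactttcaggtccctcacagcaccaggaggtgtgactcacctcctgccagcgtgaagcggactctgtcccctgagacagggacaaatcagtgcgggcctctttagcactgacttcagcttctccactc
It held the C/EBP motif on the same strand, 198 to 191 bases before the start, a motif found in 9.57% of all windows. The window of the upstream start, at chr6:113435761-113436010, held none of the motifs, nor did that of Fitm2, while the Cideb window held TATAAA 172 to 167 bases before its start.

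The 2 droplet-formation genes of the endoplasmic reticulum both fell with PPAR gamma siRNA. Fitm2 (1454935_at), which encodes FIT2, a membrane enzyme needed for droplets to bud into the cytosol, had levels of 8.24, 7.92 and 7.99 with PPAR gamma siRNA, 11.24, 11.17 and 11.18 with control siRNA, and 6.94, 6.77 and 6.67 in preadipocytes. Bscl2 (1437345_a_at), which encodes seipin, the protein lost in a human congenital lipodystrophy, had 9.90, 9.88 and 9.98 with PPAR gamma siRNA, 11.61, 11.41 and 11.57 with control siRNA, and 6.81, 6.84 and 7.02 in preadipocytes. For both genes no groups overlapped and PPAR gamma siRNA adipocytes lay in between. Fitm2 was 8.86-fold lower with PPAR gamma siRNA (-3.15 ± 0.11, 95% interval -3.38 to -2.92, adjusted p = 2.72e-09), and Bscl2 3.06-fold lower (-1.61 ± 0.09, -1.82 to -1.41, adjusted p = 1.37e-07). Their rises in differentiation had overlapping intervals, 4.17 to 4.63 for Fitm2 and 4.44 to 4.84 for Bscl2. Fitm2 ended 2.38-fold above preadipocytes (1.25 ± 0.11, adjusted p = 3.44e-06) and Bscl2 8.15-fold (3.03 ± 0.09, adjusted p = 8.92e-10). A second Bscl2 probe set (1420632_a_at) gave a fall of -1.73 ± 0.10 with PPAR gamma siRNA (adjusted p = 1.8e-07) and a rise of 3.99 ± 0.10 in differentiation (adjusted p = 6.49e-11). Against preadipocytes it gave 2.25 ± 0.10 with PPAR gamma siRNA (adjusted p = 2.38e-08), which is 4.77-fold where the first probe set gave 8.15-fold.

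Genes that work on the droplet beside these proteins were grouped by role. Of 9 lipases and cofactors, 8 fell with PPAR gamma siRNA and none rose, with a median of -2.54, where 16.1% of all genes fell and 19.9% rose. Mgll, which splits the last fatty acid from glycerol and has a type s probe set, stood at 6.31 with PPAR gamma siRNA and 10.28 with control siRNA (-3.97 ± 0.09, adjusted p = 3.16e-10). Pnpla2, the adipose triglyceride lipase, stood at 8.88 and 12.53 in the same groups (-3.65 ± 0.11, adjusted p = 1.45e-09). Abhd5, the activator of that lipase which perilipin 1 holds at the droplet, reached 9.24 with PPAR gamma siRNA, 11.79 with control siRNA and 9.25 in preadipocytes, and G0s2, its inhibitor, 11.50, 12.76 and 3.58. G0s2 therefore fell with the siRNA by -1.26 ± 0.12 (adjusted p = 1.04e-05) and stayed 7.93 ± 0.12 above preadipocytes (adjusted p = 4.15e-12), a limit since its preadipocyte level is near the low end of the array, while Abhd5 did not pass the test against preadipocytes (-0.01 ± 0.10, adjusted p = 0.959).

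Of 9 measured genes for triglyceride synthesis and droplet formation at the endoplasmic reticulum, 7 fell and 1 rose with PPAR gamma siRNA. Of all genes, 16.1% fell and 19.9% rose, and the median was -1.26 for the 9 against -0.01 for all. Gpat3, the first acyltransferase of adipocyte triglyceride synthesis, changed by -2.97 ± 0.11 (adjusted p = 6.5e-09). Dgat1, which adds the last fatty acid and has a type s probe set, changed by -2.82 ± 0.10 (adjusted p = 3.7e-09). The gene that rose was Pcyt1a (0.44 ± 0.12, adjusted p = 0.0144), whose enzyme supplies phosphatidylcholine to the surface of growing droplets. Fitm1, the muscle relative of Fitm2, was not called, at 6.90 with PPAR gamma siRNA, 6.94 with control siRNA and 6.99 in preadipocytes. In differentiation 7 of the 9 were higher and 1 lower (median 3.02), against 27.1% and 24.7% of all genes (median 0.09).

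Of 16 other measured proteins of the droplet surface, 5 rose and 5 fell with PPAR gamma siRNA, with a median of -0.18, against the same 19.9% and 16.1% of all genes. The largest falls were those of the droplet methyltransferase-like gene Mettl7b (-3.58 ± 0.09, adjusted p = 4.43e-10) and of Clstn3 (-3.09 ± 0.17, adjusted p = 9.19e-08), whose locus has a fat cell form that inhibits CIDE-driven fusion, not told apart from the neuronal form here. Mettl7b and Clstn3 were dim with PPAR gamma siRNA, at means of 5.22 and 5.77, so the sizes of both falls are limits. The largest rises were those of Hsd17b11, a droplet dehydrogenase (1.01 ± 0.09, adjusted p = 6.23e-06), and of the filament gene Vim (0.98 ± 0.11, adjusted p = 2e-05). Among 8 genes of delivery to and removal from droplets, 4 rose and 1 fell (median 0.20), against 19.9% and 16.1% of all genes (median -0.01). At 2-fold or more, 0 of the 8 were called in either direction. Lamp2, whose A isoform is the receptor of chaperone-mediated autophagy and is not told apart from the others here, rose by 0.99 ± 0.08 (adjusted p = 3.06e-06), and the ubiquitin ligase Ubr1 by 0.65 ± 0.10 (adjusted p = 0.000343). The coat protein gene Copb1 fell by 0.31 ± 0.08 (adjusted p = 0.0165), and its partner Copa rose by 0.36 ± 0.08 (adjusted p = 0.00442).

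**Figure D3:**
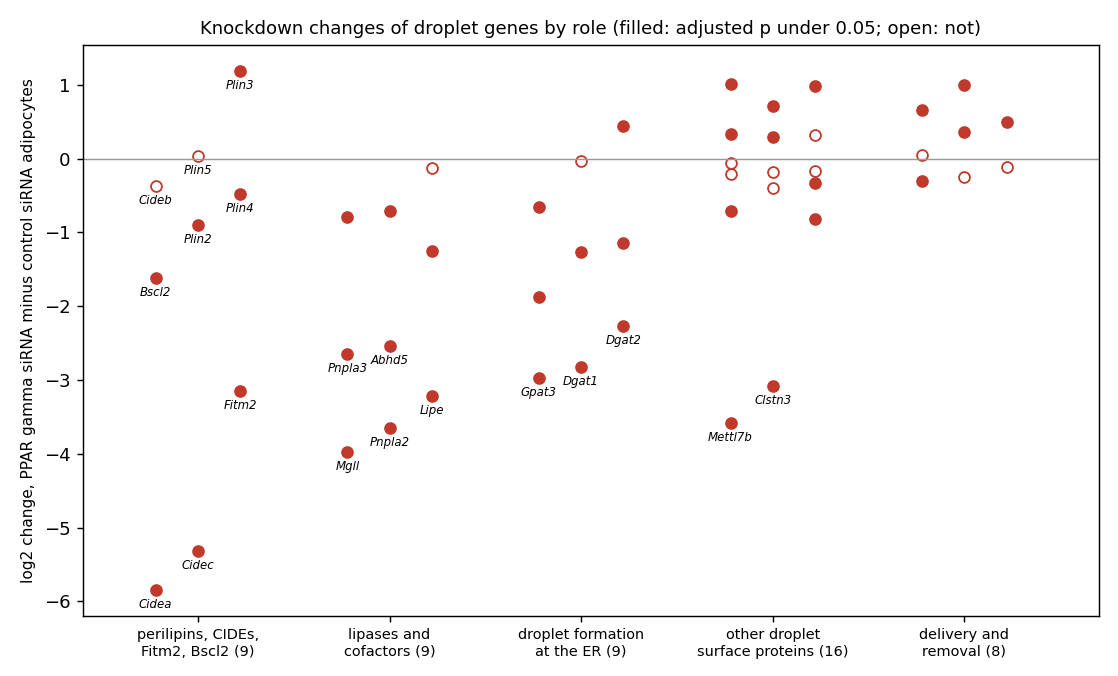
Log2 change of PPAR gamma siRNA minus control siRNA adipocytes (vertical axis) for each measured gene, in 5 columns by role; filled points passed an adjusted p of 0.05 and open points did not. Lipases and droplet-formation genes lie mostly below 0, as do Cidea and Cidec, while other surface proteins and delivery genes lie on both sides.

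The genes closest in pattern were found by the root mean square difference over the 9 arrays, after centring each gene on its own mean. For Cidea these were Rassf6 (0.48), Ffar2 (0.50), a receptor for short fatty acids, and the growth factor Nrg4 (0.66). For Cidec they were haptoglobin, Hp (0.50), Adig (0.87), which encodes adipogenin, a small droplet-associated protein of fat cells, and the melanocortin receptor accessory protein Mrap (0.97). Hp changed by -4.37 ± 0.14 with PPAR gamma siRNA and 8.35 ± 0.14 in differentiation, where Cidec changed by -5.32 ± 0.10 and 9.30 ± 0.10. With PPAR gamma siRNA, Hp ended 3.98 ± 0.14 above preadipocytes and Cidec 3.98 ± 0.10. Their preadipocyte means were 4.69 and 3.72, the latter near the low end of the array. For Plin3 the nearest were Pea15a (0.05), Nenf (0.07) and the lipid phosphatase Plpp1 (0.08). Pea15a changed by 1.18 ± 0.10 with PPAR gamma siRNA and by -1.30 ± 0.10 in differentiation, close to the 1.19 and -1.29 of Plin3. Many genes follow the 3 groups, so this likeness is a description.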

How the data were processed

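Total RNA of 9 samples in 3 groups was hybridised to 1 array each, and groups came from the labels. The authors deposited log2 probe set values; the log2 scale was read from their range. Per the submitters' processing notes, MAS5, RMA and affy 1.16.0 were used, in roles that are not given, with no word on background correction. No further scaling was applied to the values. After 64 control probe sets were left out, 45037 were fitted with limma 3.58.1 in R 4.3.3 (1 mean per group, 9 arrays, two-sided, Benjamini-Hochberg). The platform annotation gave 34945 probe sets a single gene symbol and 932 several, and the probe set of highest mean stood for a gene, with all others of the 10 genes as a check. No detection calls were used, and the small number of arrays bounds the precision. The fit was tested on simulated data. The genes, lists and alternatives were chosen with earlier results of these data known. Named were all 10 genes, Pparg, genes of the 4 droplet lists (among them the 2 largest called rises and falls of each between the siRNAs), markers of 5 cell types, and the 3 nearest patterns of Plin3, Cidea and Cidec. Of list entries, Ldaf1, Soat1, Spart, Cfd, Ly6a and Serpina1a had no single-symbol probe set. Alternatives covered scaling, dim probe sets, the samples fitted, the variance model, the probe set rule, a replicate block, fold thresholds, the Actb difference and each array left out. Promoter windows were searched with Python 3.11.15.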

Additional observations from a re-analysis of the deposited data

How the results depend on the processing

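Under 21 alternative settings and the other probe sets, 564 values of the 9 genes were recomputed, of which 544 kept their side of the threshold, 13 lost a call, 5 gained one and 2 reversed. Both reversals were those of Plin5 in differentiation, which became 0.26 on its other probe set and, by construction, when probe sets of types x and s were left out; 12 further values that were never called changed sign. No count of genes called moved by over 1.5 times, and the 2-fold minimum left 4 of the 6 genes lower between the siRNAs. With each array left out in turn, 6 to 7 genes were lower and 1 to 1 higher with PPAR gamma siRNA than control siRNA, 7 to 7 higher and 1 to 1 lower in differentiation, and 5 to 6 higher and 0 to 0 lower between PPAR gamma siRNA adipocytes and preadipocytes. Same-numbered arrays of different groups had correlations of their deviations between -0.19 and 0.17 over all fitted probe sets. No pairing by number was seen in these values, but 3 arrays a group cannot settle whether one exists. A replicate block gave 6 lower and 1 higher, 7 higher and 1 lower, and 6 higher and 0 lower in the same order. Losses of a call came from the 1.2-fold test and the 2-fold minimum, which are stricter by construction, and otherwise only for Cideb between PPAR gamma siRNA adipocytes and preadipocytes. Plin5 and Cideb had no value where dim probe sets were left out, nor had Cideb where types x and s were left out. These missing values are not among the 564 and are not counted as losses. A setting chosen after the values were seen, without both adipocyte arrays of highest Actb difference in their groups, called Cidea in that comparison (0.39, adjusted p = 0.0168) and no longer Cideb (0.40, adjusted p = 0.0858). Dim levels of Plin5, Cideb and, outside control siRNA adipocytes, Cidea limit what small differences can show.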
